A study of Mus musculus with 28 samples.

Results

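The genes described here are 10 genes of the contractile apparatus and cytoskeleton of smooth muscle: the actins Acta2 and Actg2, the myosin chains Myh11 and Myl9, the actin-associated proteins Cnn1, Tagln, Smtn and Lmod1, and the intermediate filament proteins Des and Synm. They were chosen by symbol, with earlier results of these data known. They are 10 of the 31179 gene symbols of the duodenal count table and 10 of the 30227 symbols of the kidney table. Female mice aged 8 weeks gave 28 RNA libraries, 14 from each of duodenum and kidney cortex, made with a QuantSeq kit, which reads a tag near the 3' end of each transcript. In each tissue 3 genotypes of the vitamin D receptor gene were compared: wild type (Vdr+/+, WT, n = 6), receptor-null (Vdr-/-, KO, named "vdr-/- demay" in the file headers, n = 4) and Vdr AF2 (AF2, n = 4). Activation function 2 is the region with which the receptor, once it holds its hormone, binds coactivators, and the labels describe signalling in AF2 mice as independent of them. All groups, WT included, ate the diet TD.96348, which is rich in calcium, phosphate and lactose. The part of Vdr deleted in KO and the exact change in AF2 are not stated in the labels or headers. The study set receptor signalling without coactivators against no receptor signalling, with mineral balance as its subject.

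Smooth muscle of the gut wall forms an inner circular and an outer longitudinal layer, with a thin sheet beneath the mucosa and strands inside the villi, while blood vessels of any organ carry smooth muscle of their own. Contraction starts when calcium-bound calmodulin activates myosin light chain kinase, which phosphorylates the regulatory light chain of myosin and lets myosin pull on actin. Actin-associated proteins tune this cycle, and intermediate filaments join the contractile units to one another and to the cell surface. Many genes of this programme are known to be driven by serum response factor together with myocardin. Serum response factor binds DNA at the CArG box, a run of A and T letters between CC and GG.

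Promoter sequences of RefSeq (build GRCm38.p6), from 250 bases before to 50 bases after the annotated start, were matched for 7 of the 10 genes. They are Des, Cnn1, Acta2, Myl9, Smtn, Lmod1 and Synm. Not matched were Actg2, Myh11 and Tagln. The 3 stretches below are shown because they hold the CArG-like boxes found in these windows, the element that the genes of this set are best known to share. Capitals mark each box of 10 letters. A box was allowed at most 1 C or G within its core of 6 letters, an allowance chosen after an exact search had been run. The pattern equals its own reverse complement, so a match covers both strands, and no 2 boxes shown overlap.
Acta2, chr19:34255368-34255487, minus strand: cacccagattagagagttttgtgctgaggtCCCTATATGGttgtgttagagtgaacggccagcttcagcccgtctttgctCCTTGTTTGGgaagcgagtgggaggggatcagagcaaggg
Myl9, chr2:156775273-156775404, plus strand: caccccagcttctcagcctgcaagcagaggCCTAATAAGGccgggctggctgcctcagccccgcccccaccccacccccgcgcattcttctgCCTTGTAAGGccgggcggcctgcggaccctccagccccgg
Synm, chr7:67759942-67759992, minus strand: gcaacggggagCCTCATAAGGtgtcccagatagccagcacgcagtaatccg
The Acta2 boxes begin 84 and 34 bases before the start, those of Myl9 161 and 99 bases before it, and that of Synm 239 bases before it. These starts are those of RefSeq and can differ from the gene spans given below, which are from GENCODE. For Acta2 the GENCODE span begins farther upstream, so the stretch shown lies inside it. The box of Myl9 farther from the start was the only exact one. Of the 27025 genes with such a window that were counted, 11.3% held a box with that allowance and 1.81% an exact one. Beside these stand 3 and 1 of the 7 smooth muscle genes. Genes of 1 chromosome, which holds none of the 7, were left out of the count. These letter matches are a description of the windows and were not tested for binding.

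Library totals ran from 3713352 to 25181916 counts in duodenum, where WT 2 was the deepest and the next library had 6519522, and from 3725648 to 6492228 in kidney. Every deposited count was even (0 odd values in any library), so reads are given as counts divided by 2. The filter on low counts kept 13302 duodenal and 13502 kidney genes for testing. All 10 smooth muscle genes passed in duodenum and 9 in kidney, where Actg2 had 2 reads in 2 of 14 libraries. Vdr lay at 97.3 to 120.2 CPM (counts scaled to the same library total) in the duodenum of KO, below the 267 to 646 CPM of WT and the 362 to 432 CPM of AF2. In kidney it lay at 7.94 to 22.1 CPM in KO, 177 to 212 CPM in WT and 64.8 to 91.9 CPM in AF2. The summed level of 14 intestinal epithelial genes was 13489 to 25231 CPM in duodenal libraries and 402 to 547 CPM in kidney, and that of 5 proximal tubule genes was 0.334 to 13.3 CPM in duodenum and 10355 to 18105 CPM in kidney, as the tissue labels say. The library whose correlation with its own group was lowest was WT 4 in duodenum (median r 0.944) and AF2 4 in kidney (median r 0.932). Library codes fall into 3 runs per tissue: WT 1 and 2, then WT 3 and 4 with all KO, then WT 5 and 6 with all AF2. What the codes stand for is not given. The labels do not say that each library is a separate mouse, so p-values measure the spread between these libraries.

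In the duodenum of AF2 mice all 10 smooth muscle genes had fitted levels above those of WT, by 0.23 (Myh11) to 0.69 (Actg2) on the log2 scale, with a median of 0.50. None of the 10 passed the test over all genes. The smallest adjusted p was 0.074, for Des. Against KO all 10 also lay higher in AF2, by 0.27 (Lmod1) to 0.75 (Synm), with a median of 0.57 and a smallest adjusted p of 0.10, for Myl9. KO and WT duodenum differed by -0.25 (Synm) to 0.23 (Lmod1), with adjusted p from 0.627 to 0.955. The contrasts of AF2 with WT and with KO share the AF2 libraries, so they are not independent of each other. The mitochondrial share of counts was 8.86 to 9.74% in AF2 1, AF2 2 and AF2 3, and 12.87% in AF2 4. The WT and KO libraries had 9.79 to 12.96%. The lowest of these were WT 6 (9.79%) and WT 5 (10.5%), which share a run of library codes with AF2. The part of this share in the result was not tested. In whole tissue, a change in the number of muscle cells and a change in RNA per cell cannot be told apart.

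**Figure D1:**
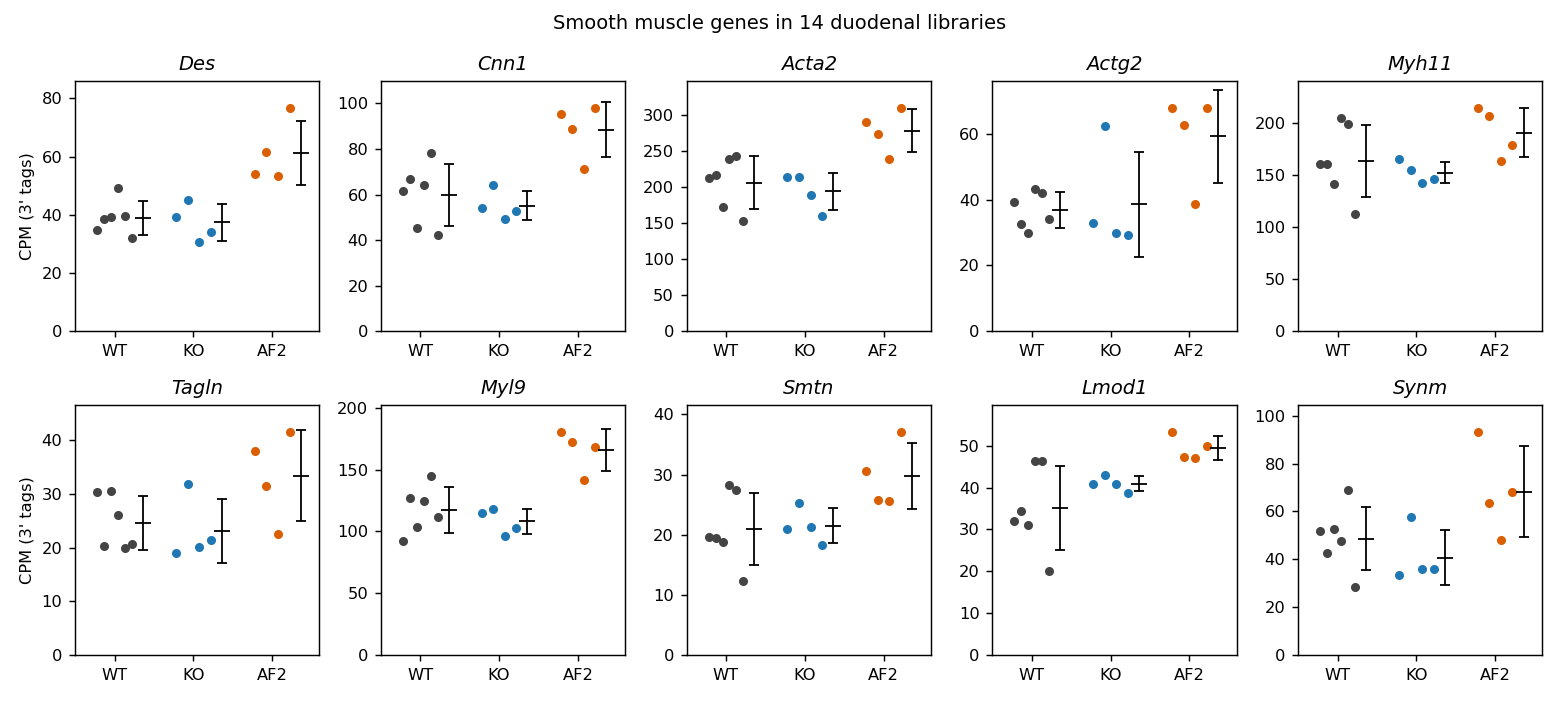
Level of each of the 10 genes in each of the 14 duodenal libraries, in CPM of 3' tags, with WT in grey (n = 6), KO in blue (n = 4) and AF2 in orange (n = 4). The black dash gives the group mean and its bars the SD, and AF2 means lie above WT and KO means in each panel, with all 4 AF2 points above all 6 WT points for Des and Lmod1.

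The actins of the thin filament come first. Acta2 (chromosome 19, 34241090 to 34255590, minus strand, GRCm38) encodes the alpha actin found in both vascular and visceral smooth muscle. In WT duodenum it ran from 153 to 244 CPM with a median of 215. In KO it was 214, 214, 189 and 160.2 CPM, and in AF2 290.2, 275, 239.8 and 311 CPM. Every AF2 library lay above every KO library, while AF2 3 fell within the WT range. The log2 fold change was 0.43 ± 0.13 (SE) against WT (adjusted p 0.178) and 0.52 ± 0.14 against KO (adjusted p 0.177).

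Actg2 (chromosome 6, 83512905 to 83536265, minus strand) encodes the gamma actin of enteric smooth muscle, which is the actin most typical of the gut wall. It ran from 29.9 to 43.2 CPM in WT with a median of 36.7. The KO libraries had 32.7, 62.3, 29.9 and 29.2 CPM, and the AF2 libraries 67.7, 62.5, 38.5 and 67.9 CPM. AF2 1, 2 and 4 lay above all WT and KO libraries, AF2 3 within the WT range, and KO 2 apart from the other KO libraries at a level near AF2. The fold change was the highest of the 10 against WT, at 0.69 ± 0.20 (adjusted p 0.164), and 0.62 ± 0.22 against KO (adjusted p 0.294). Without KO 2 the difference from KO was 0.95, with an adjusted p of 0.0745. Over the alternatives run for that contrast the adjusted p ranged from 0.0681 to 0.673.

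Next are the chains of smooth muscle myosin. Myh11 (chromosome 16, 14194535 to 14291372, minus strand) encodes the heavy chain that is made in smooth muscle. It ran from 113 to 205 CPM in WT with a median of 160.3, was 165, 155, 143 and 146 CPM in the KO libraries, and 215, 206, 164 and 179 CPM in AF2. AF2 3 and AF2 4 lay inside the WT range, and WT 4 and WT 5 lay above both of them. The fold change of 0.23 ± 0.13 against WT (adjusted p 0.532) was the lowest of the 10, and its 95% interval ran from -0.04 to 0.49. Against KO it was 0.33 ± 0.15 (adjusted p 0.469).

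Myl9 (chromosome 2, 156775420 to 156781658, plus strand) encodes a regulatory light chain, the protein that myosin light chain kinase phosphorylates. It ran from 91.9 to 145 CPM in WT with a median of 118, was 115, 119, 96.0 and 103 CPM in the KO libraries, and 181, 173, 142 and 168 CPM in AF2. All AF2 libraries lay above all KO libraries, and only WT 5, at 145 CPM, exceeded the lowest AF2 library. The difference was 0.50 ± 0.12 against WT (adjusted p 0.0829) and 0.62 ± 0.13 against KO (adjusted p 0.10).

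Cnn1 (chromosome 9, 22099216 to 22109630, plus strand) encodes calponin, which binds actin and slows myosin. Its level was 42.1 to 78.4 CPM in WT with a median of 62.9. It was 54.2, 64.4, 49.1 and 52.9 CPM in the KO libraries, and 95.4, 88.9, 71.4 and 98.1 CPM in AF2. The AF2 libraries did not overlap with KO, and AF2 3 alone lay within the WT range. The fold change was 0.56 ± 0.15 against WT (adjusted p 0.121) and 0.68 ± 0.17 against KO (adjusted p 0.135).

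Tagln (chromosome 9, 45929619 to 45936058, minus strand) encodes transgelin, an actin-binding protein related to calponin. It ran from 20.005 to 30.5 CPM in WT with a median of 23.3, was 18.9, 31.9, 20.1 and 21.5 CPM in the KO libraries, and 38.1, 31.4, 22.5 and 41.6 CPM in AF2. All groups overlapped, with AF2 3 near the WT median and KO 2 above every WT library. The difference was 0.44 ± 0.19 against WT (adjusted p 0.378) and 0.53 ± 0.22 against KO (adjusted p 0.393).

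Smtn (chromosome 11, 3517523 to 3540612, minus strand) encodes smoothelin, an actin-binding protein of contractile smooth muscle cells. It ran from 12.4 to 28.2 CPM in WT with a median of 19.5, was 21.0, 25.3, 21.3 and 18.3 CPM in the KO libraries, and 30.7, 25.7, 25.5 and 37.1 CPM in AF2. The AF2 libraries lay above all KO libraries, and AF2 2 and AF2 3 lay within the WT range. The difference was 0.51 ± 0.20 against WT (adjusted p 0.314) and 0.47 ± 0.22 against KO (adjusted p 0.481).

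Lmod1 (chromosome 1, 135324807 to 135368065, plus strand) encodes leiomodin, which starts new actin filaments. It ran from 20.04 to 46.3 CPM in WT with a median of 33.2. The other libraries varied little, with 40.9, 43.1, 41.0 and 38.8 CPM in the KO libraries, and 53.4, 47.3, 47.2 and 50.02 CPM in AF2. Every AF2 library lay above every WT and every KO library, although WT 4 and WT 5 came within about 1 CPM of AF2. The log2 fold change was 0.50 ± 0.17 against WT (adjusted p 0.245) and 0.27 ± 0.19 against KO (adjusted p 0.678), where it was the lowest of the 10.

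Of the intermediate filament proteins, Des (chromosome 1, 75360329 to 75368579, plus strand) encodes desmin, the main filament subunit of muscle. It ran from 32.1 to 49.3 CPM in WT with a median of 38.9, was 39.4, 45.1, 30.7 and 34.2 CPM in the KO libraries, and 53.9, 61.5, 53.2 and 76.8 CPM in AF2. All AF2 libraries lay above all others, and the KO libraries lay within or close to the WT range. The difference was 0.66 ± 0.15 against WT and 0.72 ± 0.17 against KO, with adjusted p of 0.074 and 0.124.

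Synm (chromosome 7, 67730160 to 67759742, minus strand) encodes synemin, which joins desmin filaments to the attachment sites of the cell. It ran from 28.4 to 69.0 CPM in WT with a median of 49.8, was 33.3, 57.8, 35.8 and 36.1 CPM in the KO libraries, and 93.4, 63.5, 48.0 and 68.4 CPM in AF2. AF2 1 stood above the rest, AF2 3 lay below the WT median, and KO 2 was again the highest KO library. The difference was 0.50 ± 0.21 against WT (adjusted p 0.385) and 0.75 ± 0.24 against KO (adjusted p 0.254), or 0.96 without KO 2 (adjusted p 0.122). Over the alternatives of that contrast the adjusted p ranged from 0.00639 to 0.594.

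By edgeR's quasi-likelihood test 0 of the 10 genes were called for AF2 against WT, where 9 genes of 13302, or 0.0677%, were called at an adjusted p under 0.05. At an unadjusted p under 0.05 there were 9 of 10 smooth muscle genes (all but Myh11) and 1564 of all genes, or 11.8%. With DESeq2 the calls were 3 (Des, Cnn1 and Myl9) beside 156 genes in all, and with limma-voom 0 beside 0 in all. Without WT 4 edgeR called 4, namely Des, Cnn1, Acta2 and Myl9, and 217 genes in all. For AF2 against KO edgeR called 0 of 10 beside 2 genes in all (0.015%), with 9 of 10 (all but Lmod1) and 9.98% of all genes at an unadjusted p under 0.05. There the calls were the same 3 genes with DESeq2, 0 with limma-voom, and those 3 again with edgeR on only the AF2 and KO libraries. Over the 10 alternatives other than leaving out 1 library, 1 to 106 genes in all were called. For KO against WT 0 of 10 were called by edgeR, DESeq2 and limma-voom alike, and edgeR called 3 genes in all (0.0226%). There 0 of 10 had an unadjusted p under 0.05, beside 11.4% of all genes.

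**Figure D2:**
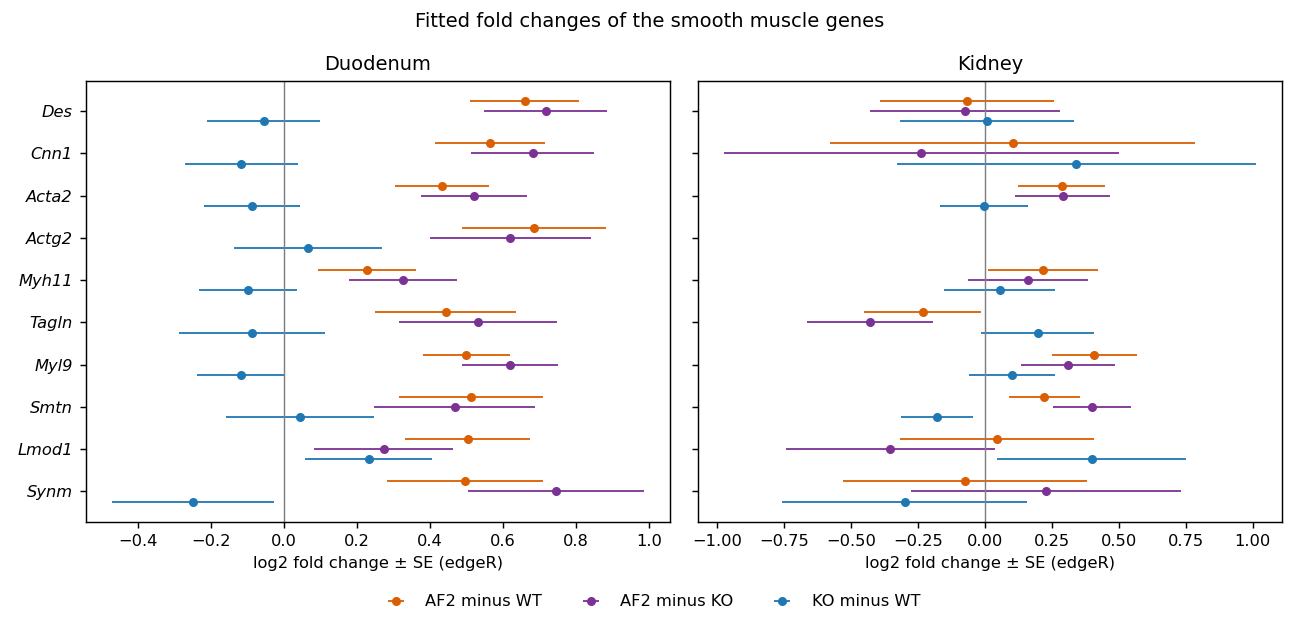
Fitted log2 fold change of each gene with its SE (bars), in duodenum (left, 10 genes) and kidney (right, 9 genes), for AF2 minus WT, AF2 minus KO and KO minus WT. In duodenum the AF2 contrasts lie right of 0 for all 10 genes and KO minus WT lies between -0.25 and 0.23, while in kidney the values scatter around 0 with wide bars for genes of few reads.

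The AF2 libraries lay wholly above WT for 2 of 10 genes, Des and Lmod1, where this held for 1.48% of all genes tested. They lay wholly above KO for 6 of 10, namely Des, Cnn1, Acta2, Myl9, Smtn and Lmod1, where it held for 3.44% of all genes. KO and WT overlapped for all 10, where 2.2% of all genes had groups that did not overlap. Over all genes the median fold change was under 0.01 in size in each of these contrasts, and 50%, 49.6% and 49.6% of genes had a positive one for AF2 against WT, AF2 against KO and KO against WT. Positive values among the smooth muscle genes numbered 10, 10 and 3 of 10. The 10 genes were chosen with earlier results of these data known, and their levels moved together within groups. These counts, and those at an unadjusted p under 0.05, are therefore not independent results and are given as a description.

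With the runs of library codes as a block, which compares AF2 with WT 5 and 6 only, all 10 remained positive against WT, from 0.30 (Myh11) to 0.78 (Des). The median was then 0.58, 0 were called and the smallest adjusted p was 0.0572. WT 5 and WT 6 themselves lay far apart, being the WT libraries with the highest and the lowest summed level of the 10 genes. AF2 and KO share no run, so for that contrast the runs enter only through WT. The median there was 0.57 with the block, with a smallest adjusted p of 0.199.

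Within the groups the genes moved together from library to library. The summed level of the 10 genes was 567 to 911 CPM in WT, 640.4 to 818 CPM in KO, and 851 to 1118 CPM in AF2. AF2 3 was the lowest AF2 library and lay below WT 4 and WT 5, while the other AF2 libraries lay above all 10 WT and KO libraries. All 10 genes lay above their WT mean in AF2 1, AF2 2 and AF2 4, and 9 of 10 in AF2 3. The median excess over the WT mean was 0.64, 0.46, 0.26 and 0.68 on the log2 scale in AF2 1 to AF2 4. WT 6 had 0 of 10 genes above the WT mean and a median of -0.44, and WT 4 had 10 of 10 and a median of 0.24. WT 5 had 9 of 10 and a median of 0.32, which was higher than that of AF2 3. Among KO libraries KO 2 had 9 of 10 above it, with a median of 0.26.

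**Figure D3:**
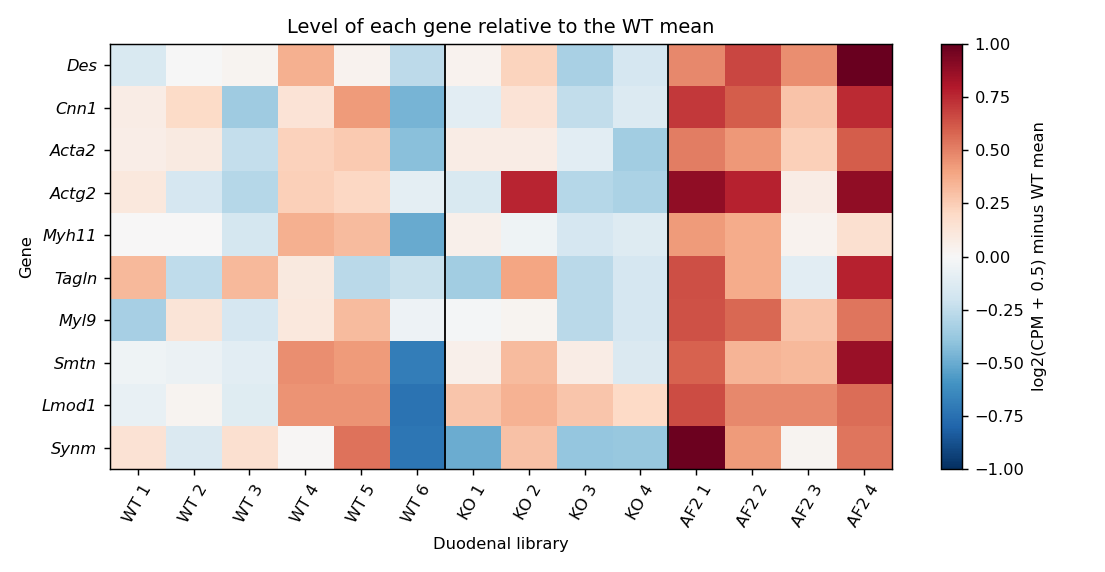
Level of each gene in each duodenal library relative to the mean of the 6 WT libraries, as the difference in log2(CPM + 0.5), with red above and blue below that mean. The columns AF2 1, AF2 2 and AF2 4 are red for all 10 genes, WT 6 is blue for all 10, and KO 2 stands out among KO libraries for Actg2.

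With the mean of each group removed, the correlation between genes over the 14 duodenal libraries had a median of 0.61 over the 45 pairs, from -0.04 for Tagln with Myl9 to 0.91 for Smtn with Lmod1. Each gene's correlation with the mean of the other 9 was highest for Smtn (0.88), Acta2 (0.86) and Cnn1 (0.86) and lowest for Myl9 (0.57) and Tagln (0.43). These values describe 14 libraries that differ in depth and scaling. Outside the set, genes among the 8 of 11923 whose levels followed the mean of the 10 most closely in the same way were Hmgn3 (0.93), Tmem176a (0.90), Mab21l2, Dnm1 and Ddx5 (each 0.89), Apbb1 (0.87) and Glipr2 (0.85). None of these was called between AF2 and WT or KO.

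The other genes of the contractile machinery were taken as a list of 30 for contraction control, tropomyosins and cell attachment, of which 28 were tested in duodenum. For AF2 against WT 24 of 28 were positive with a median of 0.28, and 0 were called. Against KO 24 of 28 were positive with a median of 0.37, and for KO against WT 6 of 28, with a median of -0.09. Mylk, the gene of myosin light chain kinase, measured 688 ± 129.7 CPM in WT (SD, n = 6), 640.1 ± 39.5 CPM in KO, and 909 ± 85.3 CPM in AF2, at 0.40 ± 0.12 against WT (adjusted p 0.178). Tpm1, a tropomyosin that lies along actin filaments, differed by 0.06 ± 0.11 (adjusted p 0.881), and Lpp, a protein of attachment sites, by -0.04 ± 0.10 (adjusted p 0.928). The smallest adjusted p of the list was that of Flna, the actin cross-linker filamin A, at 0.61 ± 0.13 (adjusted p 0.0616), named after its value was seen. The summed level of this list was 2603 to 3358 CPM in WT, 2561 to 2773 CPM in KO, and 3009 to 3498 CPM in AF2, and WT 5 lay among the AF2 libraries.

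The transcription factors of the smooth muscle programme did not share 1 direction. Of 12 tested in duodenum 5 were positive for AF2 against WT, with a median of -0.10 and 0 called. The values ran from -0.55 (Barx1, adjusted p 0.838) to 0.48 (Mef2c, adjusted p 0.333), both named after their values were seen. Myocd and Srf are named here for their role and not by abundance. Myocd, which encodes myocardin, differed by -0.06 ± 0.46 (adjusted p 0.977), and Srf, which encodes serum response factor, by -0.24 ± 0.48 (adjusted p 0.899). Both rested on few reads, and SEs of this size do not settle their direction. The most abundant of the list were Gata6, with 181 ± 10.6 CPM for WT and 182 ± 15.4 CPM for AF2 (0.01 ± 0.10, adjusted p 0.984), and Mef2d (-0.16 ± 0.16, adjusted p 0.754). The nonmuscle actins, myosins and tropomyosins, present in all cells, were positive for 6 of 8 with a median of 0.14. Actb, the beta actin of all cells, differed by 0.13 ± 0.11 (adjusted p 0.703).

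The summed levels of some lists for other cells of the gut wall were also higher in AF2 than in WT, although no gene of these lists was called in duodenum. The summed level of 8 genes of vascular mural cells, which surround blood vessels and share many genes with smooth muscle, was 279 to 330.4 CPM in AF2, above the 175 to 276 CPM of WT and the 179 to 224 CPM of KO. Most of that sum was Rgs5, a regulator of G protein signalling in pericytes, with 184 ± 36.9 CPM for WT and 260.4 ± 20.3 CPM for AF2 (0.50 ± 0.13, adjusted p 0.116). Of 6 mural genes tested 4 were positive against WT with a median of 0.40, while Higd1b and Ndufa4l2 were too low to test. The 2 that were not positive, named after their values were seen, were Notch3 (-0.41 ± 0.60, adjusted p 0.853) and Pdgfrb (-0.36 ± 0.30, adjusted p 0.686). Fibroblast and matrix genes were positive for 11 of 11 with a median of 0.37. Their sum was 847 to 1232 CPM in AF2, 658 to 856 CPM in WT and 834 to 986 CPM in KO, so that KO libraries had high fibroblast values as well. Among the most abundant, Dcn, which encodes the matrix proteoglycan decorin, differed by 0.51 ± 0.15 (adjusted p 0.163) and the collagen gene Col3a1 by 0.31 ± 0.13 (adjusted p 0.347).

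Of 4 mesothelial genes, which mark the outer lining of the gut, 3 were positive with a median of 0.73, at sums of 16.8 to 26.4 CPM in AF2 and 12.4 to 17.4 CPM in WT. Enteric neuron genes were positive for 6 of 9, with sums of 42.9 to 65.4 CPM in AF2 and 29.7 to 68.7 CPM in WT. Genes of enteric glia were positive for 1 of 2 and those of interstitial cells of Cajal, the pacemakers of the gut, for 2 of 3. Striated muscle genes were positive for 3 of 3 tested of 11, with a median of 0.49 and sums of 10.1 to 17.3 CPM in AF2 and 6.01 to 11.1 CPM in WT, and Myh1, Myh2 and Myh4 had 0 counts in all duodenal libraries. Genes of endothelium were positive for 2 of 6. Immune cell genes were positive for 2 of 5. Epithelial genes were positive for 5 of 14 with a median of -0.12, and their sum was 14585 to 19696 CPM in AF2, 13489 to 18816 CPM in KO, and 14184 to 25231 CPM in WT, where WT 4 was the lowest. Brunner gland genes had sums of 15027 to 19243 CPM in AF2 and 13092 to 27060.2 CPM in WT. Acinar pancreas genes were at 10.2 to 12764 CPM in WT, 54.2 to 6610.2 CPM in KO, and 232 to 5807 CPM in AF2. Immediate early and heat shock genes were negative for 7 of 7 with a median of -0.32. The part of the mural, fibroblast, mesothelial and epithelial values in the smooth muscle result was not tested.

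**Figure D4:**
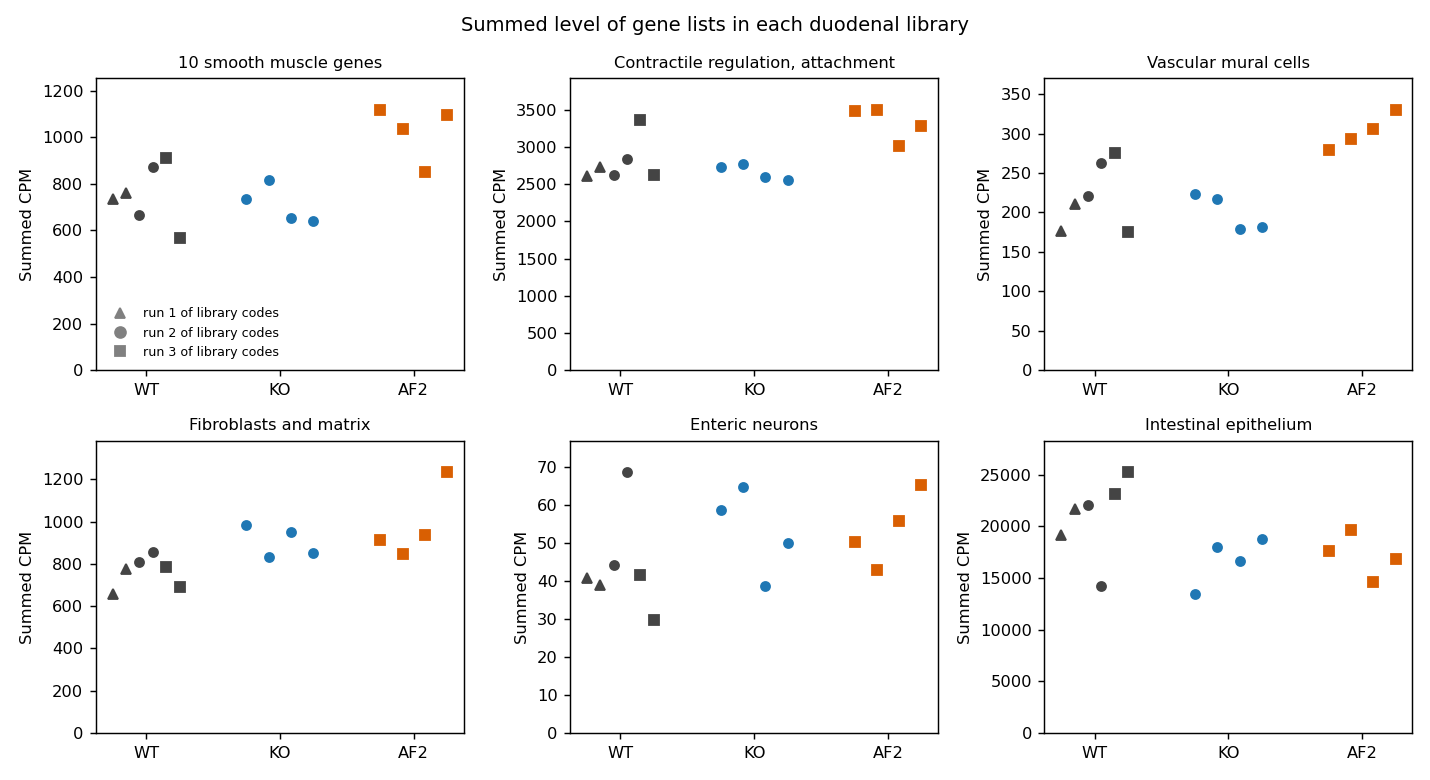
Summed CPM of 6 gene lists in each duodenal library, by group (WT grey, KO blue, AF2 orange), with symbols for the 3 runs of library codes. The sum of the 10 smooth muscle genes is above all WT and KO libraries in AF2 1, AF2 2 and AF2 4 but not in AF2 3, the mural sum is highest in the AF2 libraries, the fibroblast genes are high in KO libraries as well, and the epithelial sums of all AF2 and KO libraries but AF2 2 lie below those of 5 of the 6 WT libraries.

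The kidney cortex served as a second tissue in which smooth muscle lies mainly in vessel walls. In WT mice the 9 genes that passed the filter in both tissues all differed between them, 8 being higher in duodenum and Smtn lower, beside 69.9% of the 14944 genes in the fit of all 28 libraries. Actg2 had 857 reads in the WT duodenal libraries and 1 in the WT kidney libraries, a ratio of 499.9 with a 95% counting interval from 89.5 to 19768. It entered that fit through its duodenal reads alone and is not counted among the 9. The next largest differences were 5.36 ± 0.32 on the log2 scale for Cnn1, 4.13 ± 0.24 for Synm and 3.46 ± 0.15 for Myh11 (adjusted p 6.64e-22). Lmod1 (2.77 ± 0.24), Acta2 (2.70 ± 0.14) and Des (2.596 ± 0.20) followed, then Myl9 (1.30 ± 0.14) and Tagln (0.84 ± 0.18, adjusted p 1.19e-04). Smtn went the other way, at 12.4 to 28.2 CPM in WT duodenum and 35.3 to 45.4 CPM in WT kidney with no overlap, a log2 difference of -1.03 ± 0.15 (adjusted p 1.38e-07). The name intestinal smooth muscle gene therefore did not hold for Smtn in this pair of tissues. The exons of Smtn overlap the opposite-strand genes Gm11946 and Gm11947, those of Des overlap Gm15179, those of Tagln Gm48529 and Pcsk7, and those of Synm Gm45102 and Ttc23. Whether the counting used strand is not given, so values of these 4 genes may hold reads of their partners.

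**Figure D5:**
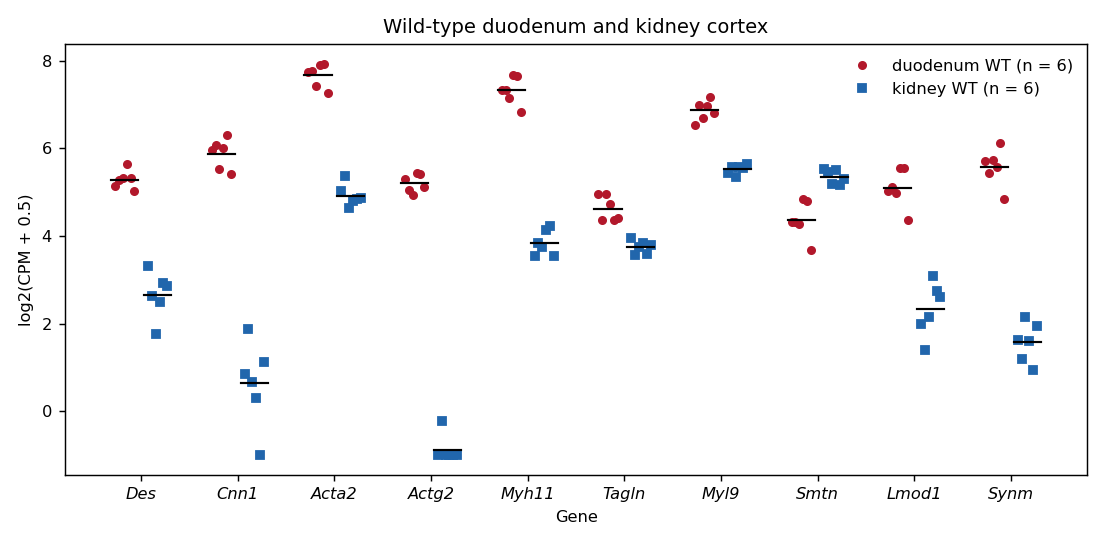
Level of each gene in WT duodenum (red circles, n = 6) and WT kidney cortex (blue squares, n = 6) as log2(CPM + 0.5), with a line at each mean. Duodenal values lie above kidney values for 9 genes with no overlap, and kidney values lie above duodenal ones for Smtn.

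In kidney no smooth muscle gene passed the test between genotypes. For AF2 against WT the 9 genes tested differed by -0.23 (Tagln) to 0.41 (Myl9). None were called by edgeR, DESeq2 or limma-voom, beside 366 of 13502 genes by edgeR (2.71%). An unadjusted p under 0.05 was found for 1 of 9, beside 14.5% of all genes. Myl9 was at 40.4 to 49.3 CPM in WT with a median of 46.8, at 57.1, 44.9, 47.8 and 45.8 CPM in KO, and at 50.4, 46.7, 47.8 and 95.8 CPM in AF2. AF2 4 alone stood high, and without it the difference of 0.41 ± 0.16 (adjusted p 0.20) was 0.08 (adjusted p 0.887). Over the alternatives of that result the adjusted p ranged from 0.0971 to 0.887.

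Acta2 in kidney ran from 24.6 to 40.9 CPM in WT with a median of 28.4, was 36.04, 25.5, 23.6 and 36.3 CPM in the KO libraries, and 40.8, 40.7, 32.7 and 33.9 CPM in AF2. The groups overlapped, and the difference was 0.29 ± 0.16 against WT (adjusted p 0.437). Smtn was 35.3 to 45.4 CPM in WT with a median of 41.0, 36.6, 41.2, 32.2 and 33.7 CPM in the KO libraries, and 43.4, 47.7, 44.1 and 53.9 CPM in AF2. Its AF2 libraries lay above all KO libraries and overlapped with WT, at 0.40 ± 0.15 against KO (adjusted p 0.255) and 0.22 ± 0.13 against WT (adjusted p 0.463). Myh11 ran from 11.2 to 18.1 CPM in WT, 12.1 to 16.5 CPM in KO, and 12.2 to 22.4 CPM in AF2, at 0.22 ± 0.21 against WT (adjusted p 0.683). Tagln, Des, Lmod1, Synm and Cnn1 had 444, 204, 183, 83 and 51 reads over the 14 kidney libraries, and the SEs of their AF2 differences from WT ran from 0.22 (Tagln) to 0.68 (Cnn1).

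For AF2 against KO in kidney 0 of 9 were called beside 45 genes in all (0.333%), and the differences ran from -0.43 (Tagln) to 0.40 (Smtn). An unadjusted p under 0.05 was found for 1 of 9, Smtn, beside 11.5% of all genes. For KO against WT 0 of 9 were called beside 114 genes in all (0.844%), and the differences ran from -0.30 (Synm) to 0.40 (Lmod1). There 0 of 9 had an unadjusted p under 0.05, beside 10.5% of all genes. DESeq2 and limma-voom called 0 of 9 in both. Groups did not overlap for 1 of 9 genes in AF2 above KO (Smtn, beside 3.55% of all genes), for 0 of 9 between AF2 and WT (beside 4.73%) and for 0 of 9 between KO and WT (beside 3.44%). The summed level of the 10 genes in kidney was 139 to 169.98 CPM in WT, 138 to 180.2 CPM in KO, and 158 to 232 CPM in AF2, where the highest was AF2 4.

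Of the contractile list 2 of 27 genes tested were called in kidney between AF2 and WT, beside 2.71% of all genes. Pgm5, a protein of muscle attachment sites, rose from 4.69 ± 1.55 CPM in WT to 20.7 ± 3.97 CPM in AF2 (log2 fold change 2.15 ± 0.26, adjusted p 2.79e-06). It also rose in KO, to 10.9 ± 4.02 CPM (1.23 ± 0.27, adjusted p 0.0171). Csrp1, a LIM-domain protein of actin bundles, rose from 20.9 ± 4.04 to 36.3 ± 8.42 CPM in AF2 (0.81 ± 0.18, adjusted p 0.0061). In duodenum neither was called, at 0.31 ± 0.20 for Pgm5 (adjusted p 0.565) and -0.21 ± 0.21 for Csrp1 (adjusted p 0.752). The list of 3 genes for the kidney's juxtaglomerular and mesangial cells had sums of 401 to 767 CPM in AF2 and 56.3 to 194 CPM in WT. Most of that in AF2 was Ren1, the renin gene, at 2.12 ± 0.52 against WT (adjusted p 0.0576). Podocyte genes were positive for 4 of 4 in AF2 against WT with a median of 0.61, and 2 of 4 were called, among them Synpo at 0.71 ± 0.13 (adjusted p 0.00133). Etv1, in the list for interstitial cells of Cajal, fell in kidney AF2, at a log2 fold change of -3.91 (adjusted p 1.23e-04), and in KO, at -3.71 (adjusted p 4.76e-04). The part of these genes in the kidney values of the 10 was not tested.

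The test of whether the genotype differences themselves differed between the tissues called 0 of 10 genes for AF2, beside 57 of 14944 genes in all (0.381%). The AF2 difference was greater in duodenum for 9 of 10, with a median of 0.35, but the value of Actg2 there rests on 2 kidney reads. Over all genes it was greater in duodenum for 48%, with a median of -0.02. Without kidney WT 2 it was greater for 7 of 10 with a median of 0.15, and without kidney AF2 2 for 8 of 10 with a median of 0.21. At an unadjusted p under 0.05 were 2 of 10, beside 10.7% of all genes. They were Des at 0.70 ± 0.32 (adjusted p 0.427) and Tagln at 0.66 ± 0.29 (adjusted p 0.397). For AF2 against KO 0 of 10 were called beside 4 genes in all (0.0268%). Tagln differed by 0.98 ± 0.32 (adjusted p 0.362) and Des by 0.79 ± 0.35 (adjusted p 0.585). These were the 2 of 10 under 0.05 unadjusted, beside 7.99% of all genes. The median of the 10 was 0.43, beside 0.02 over all genes. For KO 0 of 10 were called beside 8 genes in all (0.0535%), and 0 of 10 were under 0.05 unadjusted, beside 7.99% of all genes. DESeq2 and limma-voom called 0 of 10 in these contrasts, so a difference between the tissues was not shown for any of the 10.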

How the data were processed

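The deposited files hold raw counts per gene symbol, 1 table per tissue, per the file headers. Libraries were made from 1 µg of total RNA extracted with TRIzol, per the labels' protocols. The genome build mm10 and limma 3.34.9 are named in the submitters' processing notes, without their role. No aligner, counter or strand setting is given in the sources used here.

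The 14 libraries of a tissue were fitted together with genotype as the only term, by edgeR 4.0.16 under R 4.3.3 (filterByExpr, TMM scaling, robust quasi-likelihood test, Benjamini-Hochberg adjustment over all genes). A gene was called at an adjusted p under 0.05. A fit of all 28 libraries, taken as unpaired, gave the contrasts between tissues. The SE is the log2 fold change divided by the square root of F. CPM used TMM-adjusted totals, and 0.5 CPM was added before logs. DESeq2 1.42.0 and limma-voom (limma 3.58.1) were alternatives. Gene spans came from GENCODE vM21, and figures from matplotlib 3.10.9 and pandas 2.3.3 under python 3.11.15. The fits were tested on simulated data.

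The 10 genes and the gene lists were chosen with earlier results of these data known. Named were all 10 genes, up to 3 genes per list (those called, otherwise the most abundant) and the 8 genes most like the set. Genes outside this rule (Flna, Notch3, Pdgfrb, Myocd, Srf, Barx1 and Mef2c) were named with their values known. Some genes that it names are not reported here. Counting intervals cover counting error only. No 2 libraries held identical values.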

Additional observations from a re-analysis of the deposited data

Results flagged for a closer look

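Of 63 groups of 4 or 6 libraries examined, for the 10 genes (Actg2 in duodenum only) and their summed level, 3 held a library far from the rest, where chance gives about 5%. Actg2 in the duodenum of KO 2 was 62.3 CPM, against 29.2 to 32.7 CPM in the other KO libraries. Synm in the duodenum of KO 2 was 57.8 CPM, against 33.3 to 36.1 CPM in the others. Myl9 in the kidney of AF2 4 was 95.8 CPM, against 46.7 to 50.4 CPM in the others. The cause of these values was not tested.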

How the results depend on the processing

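All 10 genes stayed higher in AF2 than in WT and than in KO duodenum in the 24 alternatives of each contrast. The number called depended on the setting. For AF2 against WT it was 2 with upper-quartile scaling (Des and Myl9) beside 26 genes in all. It was 3 with DESeq2 beside 156, and 4 with no filter on low counts beside 240. When 1 library was left out it was 0 to 4, the 4 being without WT 4, beside 0 to 217 in all. Upper-quartile scaling also moved the median of all genes by 0.051 in this contrast, to 0.052, and Des from 0.66 to 0.71. For AF2 against KO the number called was 3 with DESeq2, 5 with no filter and 3 with only the 2 groups fitted. It was 2 with the replicate block (Cnn1 and Myl9) and 0 to 0 when 1 library was left out. Genes called in all numbered 1 to 4 with 1 library left out and 1 to 106 over the other alternatives. Deviations of same-numbered libraries from their group means correlated from -0.21 to 0.106 within duodenum, -0.04 to 0.17 within kidney and -0.08 to 0.105 across tissues. Differently numbered libraries were not compared, so these values do not settle whether the replicate numbers pair the libraries. With the replicate block 0 were called for AF2 against WT, with a smallest adjusted p of 0.101. The 9 genes other than Actg2 were called between the WT tissues, and 0 of 10 in the interactions, in each of 36 alternatives. Upper-quartile scaling moved the median of all genes by -0.13 in the tissue contrast, to -0.115, where Tagln was then 0.72 and Smtn -1.15.

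Small differences between KO and WT, and between kidney groups, changed sign. In duodenum with the library-code block, Cnn1 was 0.0033 and Smtn -0.14. Leaving out 1 library gave -0.072 to 0.15 for Smtn, -0.16 to 0.028 for Des, -0.28 to 0.000311 for Tagln and -0.27 to 0.17 for Actg2. In kidney AF2 against KO it gave -0.0087 to 0.28 for Myh11 and -0.017 to 0.42 for Myl9. In kidney KO against WT Acta2 was 0.014 with upper-quartile scaling, 0.22 with the library-code block and -0.12 to 0.11 with 1 library left out, and Myh11 was -0.041 with the block and -0.021 to 0.14. The cause was not tested. All-gene calls in duodenum ranged from 0 to 240 for AF2 against WT, 1 to 106 for AF2 against KO and 1 to 229 for KO against WT. Few kidney reads limit Cnn1, Synm and Actg2.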
